A study of Mus musculus with 9 samples.

Results

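The comparison described here sets naive CD4+ T cells lacking Stat6 (Stat6_KO) against naive CD4+ T cells of WT mice, both untreated and both of the C57BL/6 strain. Its members are 6 of the 9 ATAC-seq libraries of the series, 3 per genotype, chosen by genotype alone and compared over the 115727 peaks of the deposited table, of which 46301 held enough reads to be tested. The remaining 3 libraries, from Il21e_KO mice, took no part in the fit and are quoted only for their levels at peaks that differed. ATAC-seq uses a transposase to cut and tag open DNA, so that reads pile up where chromatin is accessible. The labels give neither the age of the mice, nor the part of Stat6 that the knockout removes, nor whether the 3 libraries of a genotype are separate animals, so p-values measure the spread between these libraries.

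STAT6 is the transcription factor that interleukin-4 (IL-4) activates. The cytokine binds a receptor made of the IL-4 receptor alpha chain and the common gamma chain, the receptor-bound kinases JAK1 and JAK3 phosphorylate STAT6, and STAT6 dimers enter the nucleus and bind DNA. In CD4+ T cells this signal is best known for directing activated cells toward the Th2 fate through the transcription factor GATA3. Naive cells are resting cells that have not met their antigen, and the question of the comparison is how their open chromatin differs when STAT6 is missing.

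Values are given in CPM, the count of reads in a peak scaled so that each library's listed peaks share the same total. Reads in peaks ran from 1284426 to 1759775 per library of the fit, so that 1 read was worth between 0.568 and 0.779 CPM. Intervals given below cover counting error only. Stat6_KO libraries left fewer peaks without any read (4950 ± 1029) than WT libraries (10543 ± 3320, SD, n = 3), and at the depth of the shallowest library the expected numbers were 8431 ± 873 and 12741 ± 3332 (exact 2-sided permutation p = 0.1 each, the smallest possible). WT 3 stood apart from the other WT libraries: 32.3% of its reads lay in peaks at a transcription start site (TSS), close to the 31.6% to 33.3% of the Stat6_KO libraries, against 36.4% and 35.6% in WT 1 and WT 2. Among the Il21e_KO libraries, Il21e_KO 1 stood apart, with 1049460 reads in peaks, 23.5% of peaks empty and 42.7% of reads in TSS peaks. Il21e_KO 2 and 3 had 5.14% and 3.77% of peaks empty, and 32.7% and 33.0% of reads in TSS peaks. Of the helper T cell genes looked at, all but Cd4 had a promoter peak with enough reads to be tested. That of Zbtb7b, the factor that fixes the CD4 lineage, stood at 31.2 ± 2.42 CPM in WT and 26.2 ± 4.00 in Stat6_KO. The Cd4 promoter was low, at 5.17 ± 3.00 and 4.09 ± 1.44 CPM. Among B cell genes, the promoter of Cd79b stood at 1.12 ± 1.32 CPM in WT and 1.58 ± 0.935 in Stat6_KO, and that of Ms4a1 at 7.15 ± 5.74 and 8.06 ± 1.41. The promoter of the CD8 T cell gene Cd8b1 stood at 38.2 ± 2.96 and 32.8 ± 2.61 CPM, so promoter levels did not follow cell type at every marker.

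The promoter sequences below are shown because they belong to genes whose promoter peak carried a result, or hold the paired half-sites that STAT proteins bind. Each is the 250 bases before the annotated start in RefSeq, build GRCm38.p6, in the 5′ to 3′ direction of the gene; for Vamp4, with 2 starts, the upstream one was taken. Capitals mark a match to TTCNNNGAA, the usual STAT spacing, or TTCNNNNGAA, the wider spacing that STAT6 favours; both read the same on either strand. They are the promoters of Stat6 (chr10:127642736-127642985, plus strand), of Sox30 (chr11:45980060-45980309, plus strand) and Vamp4 (chr1:162570265-162570514, plus strand), which differed between genotypes, and of Il7r (chr15:9529877-9530126, minus strand), Socs3 (chr11:117969367-117969616, minus strand) and Stat2 (chr10:128270248-128270497, plus strand), which hold a match.
Stat6: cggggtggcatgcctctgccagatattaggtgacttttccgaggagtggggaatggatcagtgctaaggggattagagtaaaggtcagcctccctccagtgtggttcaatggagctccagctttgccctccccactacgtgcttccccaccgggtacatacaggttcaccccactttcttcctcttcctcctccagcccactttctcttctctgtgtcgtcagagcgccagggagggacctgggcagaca
Sox30: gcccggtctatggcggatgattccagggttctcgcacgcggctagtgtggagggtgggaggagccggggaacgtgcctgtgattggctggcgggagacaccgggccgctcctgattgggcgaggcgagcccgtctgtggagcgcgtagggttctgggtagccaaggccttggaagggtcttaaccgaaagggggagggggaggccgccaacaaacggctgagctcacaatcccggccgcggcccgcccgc
Vamp4: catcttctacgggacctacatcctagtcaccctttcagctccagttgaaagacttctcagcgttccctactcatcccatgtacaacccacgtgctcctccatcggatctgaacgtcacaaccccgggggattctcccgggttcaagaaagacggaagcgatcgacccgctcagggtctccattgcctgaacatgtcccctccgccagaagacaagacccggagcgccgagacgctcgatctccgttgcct
Il7r: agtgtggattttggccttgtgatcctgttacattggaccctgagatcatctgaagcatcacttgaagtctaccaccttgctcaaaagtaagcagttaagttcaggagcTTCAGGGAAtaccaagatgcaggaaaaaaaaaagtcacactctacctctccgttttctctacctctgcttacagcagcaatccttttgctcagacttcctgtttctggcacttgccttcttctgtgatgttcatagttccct
Socs3: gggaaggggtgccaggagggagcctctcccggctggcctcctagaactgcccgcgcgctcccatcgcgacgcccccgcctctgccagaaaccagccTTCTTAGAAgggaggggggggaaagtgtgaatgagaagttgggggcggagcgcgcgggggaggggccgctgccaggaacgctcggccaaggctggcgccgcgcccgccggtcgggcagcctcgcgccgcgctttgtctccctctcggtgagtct
Stat2: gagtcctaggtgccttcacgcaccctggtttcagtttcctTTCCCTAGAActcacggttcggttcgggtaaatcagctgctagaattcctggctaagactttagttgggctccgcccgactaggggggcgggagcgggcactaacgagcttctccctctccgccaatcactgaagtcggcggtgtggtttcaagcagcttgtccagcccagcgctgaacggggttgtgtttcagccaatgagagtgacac
The Il7r and Socs3 windows hold 1 match to the shorter motif, starting 142 and 154 bases before the start, and the Stat2 window 1 match to the longer, 210 bases before it. Such matches are not rare: among 32851 promoter windows of the same length, 7.02% hold the shorter motif and 5.85% the longer.

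Without STAT6, 28 peaks changed, 17 to higher and 11 to lower accessibility, which is 0.0605%, 0.0367% and 0.0238% of the 46301 peaks tested (limma-trend on log2(CPM + 1), Benjamini-Hochberg adjusted p under 0.05). The largest losses lay between genes on chromosomes 11 and 12 and left almost no reads, and the largest gain was a peak near Fam71b that held no read in WT. At the 28 peaks every Stat6_KO library lay outside the range of the WT libraries, as it did at 13.2% of all peaks tested. An unadjusted p under 0.05 was reached by 8.46% of peaks, 1756 with a positive and 2163 with a negative fold change. The median log2 fold change over all tested peaks was -0.01. In parentheses, a value without a unit and its standard error give the log2 fold change of Stat6_KO over WT.

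**Figure D1:**
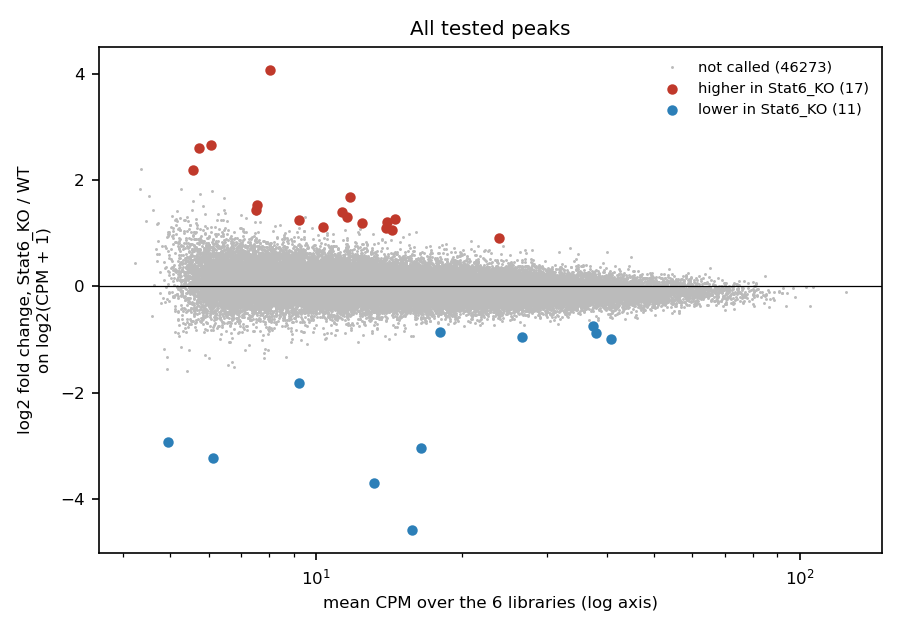
Each point is 1 of the 46301 tested peaks, placed by its mean CPM over the 3 WT and 3 Stat6_KO libraries (log axis) and its log2 fold change of Stat6_KO over WT. The 17 red points are peaks that rose and the 11 blue points peaks that fell at an adjusted p under 0.05, and they reach 4.08 and -4.60.

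The targeted gene was looked at first. Its promoter peak (mm9, chromosome 10, 127078755 to 127081311) held 83.8, 71.6 and 56.7 CPM in WT and 64.2, 63.0 and 68.5 in Stat6_KO, so the groups overlapped (log2 fold change -0.10 ± 0.12, SE). A peak in exon 16 (127094700 to 127095673) held 5.51, 9.34 and 10.96 CPM in WT and 23.3, 19.4 and 15.3 in Stat6_KO. All Stat6_KO libraries were above all WT libraries there, and the exon 16 peak rose (1.11 ± 0.22, limma-trend adjusted p = 0.0265). A peak in exon 12 (127091973 to 127092691) went the other way, with 6.73, 7.01 and 12.3 CPM in WT and 2.84, 1.77 and 1.83 in Stat6_KO. Its groups did not overlap either, but it missed the threshold (-1.59 ± 0.38, limma-trend adjusted p = 0.0951; edgeR quasi-likelihood adjusted p = 0.0204). The exon 12 peak met the read filter through the WT libraries alone. The promoter peak was thus at a like level in both genotypes, and these 2 peaks of the gene body differed in opposite directions. DESeq2 did not call the exon 16 peak (adjusted p = 1.00). Within 10 Mb of these peaks 418 peaks were tested and the exon 16 peak was the only one of them called.

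**Figure D2:**
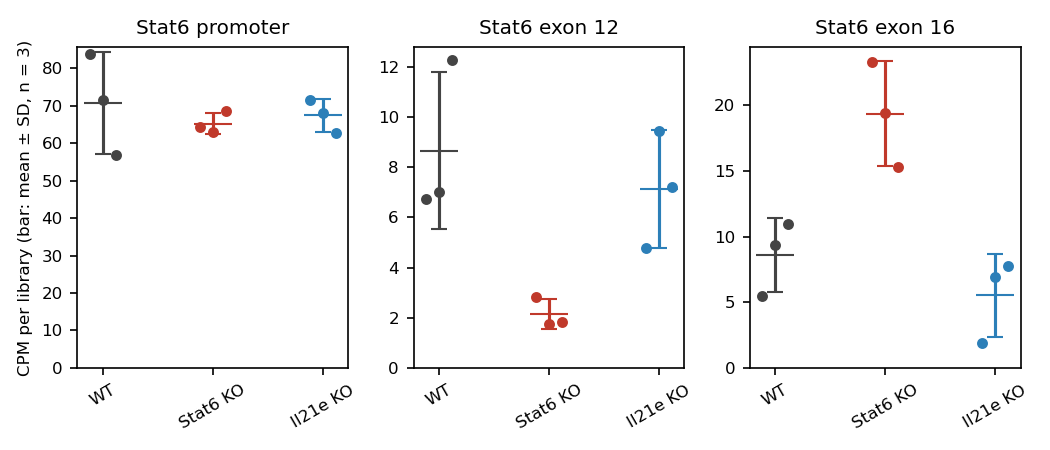
CPM of the 3 tested Stat6 peaks in each library (points), with the mean and SD of each genotype (bars, n = 3); the vertical axes differ in range and start at 0. The promoter groups overlap, the exon 12 peak is lowest in Stat6_KO at 2.15 ± 0.602 CPM and the exon 16 peak is highest there at 19.3 ± 4.00 CPM.

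Of the peaks that fell, 5 were nearly empty in Stat6_KO cells, and all of them lay between genes. At these 5 every Stat6_KO library lay below the read filter, whose cutoff is scaled to depth, so they met it through the WT libraries alone. The peak near Scpep1os, a transcript antisense to the carboxypeptidase gene Scpep1 (chromosome 11, 88756609 to 88757743, 9.50 kb from that start), had 36, 48 and 53 reads in the WT libraries and 0, 2 and 0 in the Stat6_KO libraries (log2 fold change -4.60 ± 0.35, limma-trend adjusted p = 1.12e-11). The peak 216 kb from Il12b, which encodes the subunit shared by interleukins 12 and 23 (chromosome 11, 43996386 to 43997422), held 37, 38 and 36 reads against 0, 3 and 3 (-3.71 ± 0.34, limma-trend adjusted p = 9.61e-10). On chromosome 12, a peak 56.2 kb from the sorting nexin gene Snx13 (35674659 to 35675659) had 52, 38 and 44 reads against 10, 3 and 3 (-3.05 ± 0.26, limma-trend adjusted p = 2.74e-10). These 3 calls passed in each of the 18 alternative analyses. Agr2, a disulfide isomerase gene of secretory cells, was the nearest gene of the other 2 peaks, whose centres lay 19.1 kb apart. The first (36622808 to 36624051) had 19, 15 and 19 reads against 1, 0 and 1, and the second (36642250 to 36642901) 20, 11 and 12 against 1, 0 and 1 (-3.24 ± 0.47 and -2.92 ± 0.51, limma-trend adjusted p = 0.000131 and 0.00344). In the Il21e_KO libraries all 5 peaks were occupied, at 28.7 ± 4.14 CPM near Scpep1os, 21.7 ± 4.79 near Il12b, 29.5 ± 2.88 near Snx13, and 11.3 ± 2.37 and 8.73 ± 0.635 near Agr2.

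The remaining losses were partial. The promoter peak of Ahr, whose product is a transcription factor that senses small aromatic ligands (chromosome 12, 36218657 to 36220089), held 54.5, 49.8 and 43.9 CPM in WT and 30.7, 24.7 and 23.9 in Stat6_KO (-0.88 ± 0.15, limma-trend adjusted p = 0.00146). In Il7r, whose product receives the IL-7 survival signal, an intron 1 peak 898 bases from the start (chromosome 15, 9457665 to 9458734) held 41.0, 34.3 and 30.95 CPM in WT and 21.03, 18.3 and 14.7 in Stat6_KO (-0.94 ± 0.17, limma-trend adjusted p = 0.00423). The Il7r promoter itself, whose sequence is printed above, stood at 15.4 ± 2.87 and 13.6 ± 3.45 CPM, and the other 9 tested peaks of the gene had log2 fold changes of -0.25 to 0.52. The promoter of Vamp4, a SNARE gene of vesicle fusion, fell from 46.9 ± 2.99 to 28.0 ± 4.58 CPM (-0.74 ± 0.15, limma-trend adjusted p = 0.0195). A peak in Sgms1, a sphingomyelin synthase gene, fell from 23.6 ± 1.93 to 12.6 ± 0.450 CPM (-0.86 ± 0.18, limma-trend adjusted p = 0.0473). That was the weakest call, and 40 other Sgms1 peaks had a median of 0.10.

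Near G530011O06Rik, a locus known only by a clone name (chromosome X, 166434797 to 166436614), accessibility fell from 54.6 ± 3.30 to 26.9 ± 2.22 CPM (-0.997 ± 0.14, limma-trend adjusted p = 6.69e-05). The peak on chromosome 17 (83557263 to 83558202) 56.4 kb from Pkdcc, whose product is a tyrosine kinase of the secretory pathway, had 13, 25 and 28 reads in the WT libraries and 7, 5 and 5 in the Stat6_KO libraries (-1.82 ± 0.30, limma-trend adjusted p = 0.00146). Like the 5 nearly empty peaks, the Pkdcc peak met the read filter through the WT libraries alone. It was the exception among the losses, for the Il21e_KO libraries were low there as well, at 1, 3 and 4 reads. Among the 11 losses the Il21e_KO mean lay nearer to WT than to Stat6_KO on the log scale at 10. Since the WT libraries took part in choosing the peaks, that count is a description. The part in it of Il21e_KO 1, the library that stood apart, was not tested.

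Gains began from WT means of at most 9.06 CPM, except the one near Med7, which began from 16.4 CPM. The peak 7.84 kb from Fam71b (chromosome 11, 46226068 to 46226741) was without a read in any WT library and had 29, 31 and 22 reads in Stat6_KO. Taking 3 reads per WT library as the floor, this is at least 7.89-fold higher (limma-trend adjusted p = 6.54e-07). Intron 1 of Tom1l2, an endosomal sorting gene (chromosome 11, 60163209 to 60163660), had 2, 0 and 3 reads in WT against 14, 20 and 22 in Stat6_KO, or 9.83 times as many per total read (95% exact binomial interval 3.97 to 31.4; limma-trend adjusted p = 0.00174). Intron 1 of the predicted gene Gm21949 had 2, 3 and 1 against 22, 16 and 12 (7.31 times, 3.13 to 20.9; limma-trend adjusted p = 0.0115). In these 3 peaks no WT library exceeded 3 reads, so they met the read filter through the Stat6_KO libraries alone. The called peaks of Adam19, Fam46b and Cd53, given below, held at most 9 reads in any WT library and met the filter in the same way. Of the Il21e_KO libraries, 1 reached 16 reads at the Tom1l2 peak, while the others there held 3 and 2.

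The other gains were between 1.91-fold and 3.55-fold in summed reads per total read. At the 3′ end of Hip1r, which links clathrin to actin, a peak rose from 5.16 ± 2.38 to 18.4 ± 6.11 CPM (limma-trend adjusted p = 0.000831). The Sox30 promoter, printed above, rose from 5.79 ± 0.335 to 16.9 ± 1.22 CPM (log2 fold change 1.40 ± 0.23, limma-trend adjusted p = 0.00141); Sox30 is a transcription factor of male germ cells. An intergenic peak 5.07 kb from the retromer gene Vps26a rose from 8.30 ± 2.47 to 20.8 ± 1.33 CPM, and intron 2 of Dusp10, a phosphatase of the p38 and JNK kinases, from 6.34 ± 1.67 to 16.9 ± 1.18 CPM. Among lymphocyte genes, peaks rose at the 3′ end of P2ry10, a lysophospholipid receptor gene (8.40 ± 3.41 to 19.7 ± 2.20 CPM), and of Cd53, a tetraspanin of white blood cells (3.64 ± 1.05 to 11.4 ± 0.490 CPM). No other peak of either gene passed: the other 2 tested P2ry10 peaks had log2 fold changes of -0.21 and -0.13, and the other 9 Cd53 peaks ranged from -0.18 to 0.49.

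Adam19, a membrane metalloprotease gene, rose at a peak 60522 bases from its start that the table annotates as a 5′ UTR exon (5.07 ± 1.03 to 13.4 ± 1.38 CPM), and intergenic peaks rose 11.6 kb from Fam46b, a nucleotidyltransferase gene (3.52 ± 1.82 to 11.6 ± 1.91), 14.9 kb from the Mediator gene Med7 (16.4 ± 3.82 to 31.5 ± 5.46) and near the clone locus 4930597A21Rik (7.17 ± 1.14 to 17.7 ± 2.18). A chromosome 12 peak whose nearest start, that of Sel1l, is 1381 kb away rose from 9.06 ± 2.34 to 19.6 ± 1.35 CPM and stood at 18.1 ± 0.891 in Il21e_KO. Intron 2 of Wfs1, which encodes a membrane protein of the endoplasmic reticulum, rose from 6.17 ± 1.31 to 14.5 ± 1.42 CPM; Wfs1 and Cd53 are outside the naming rule and are given to complete the set. Of the 17 gains the Il21e_KO mean lay nearer to WT at 13. It lay nearer to Stat6_KO at the Tom1l2, P2ry10, Sel1l and Fam46b peaks.

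**Figure D3:**
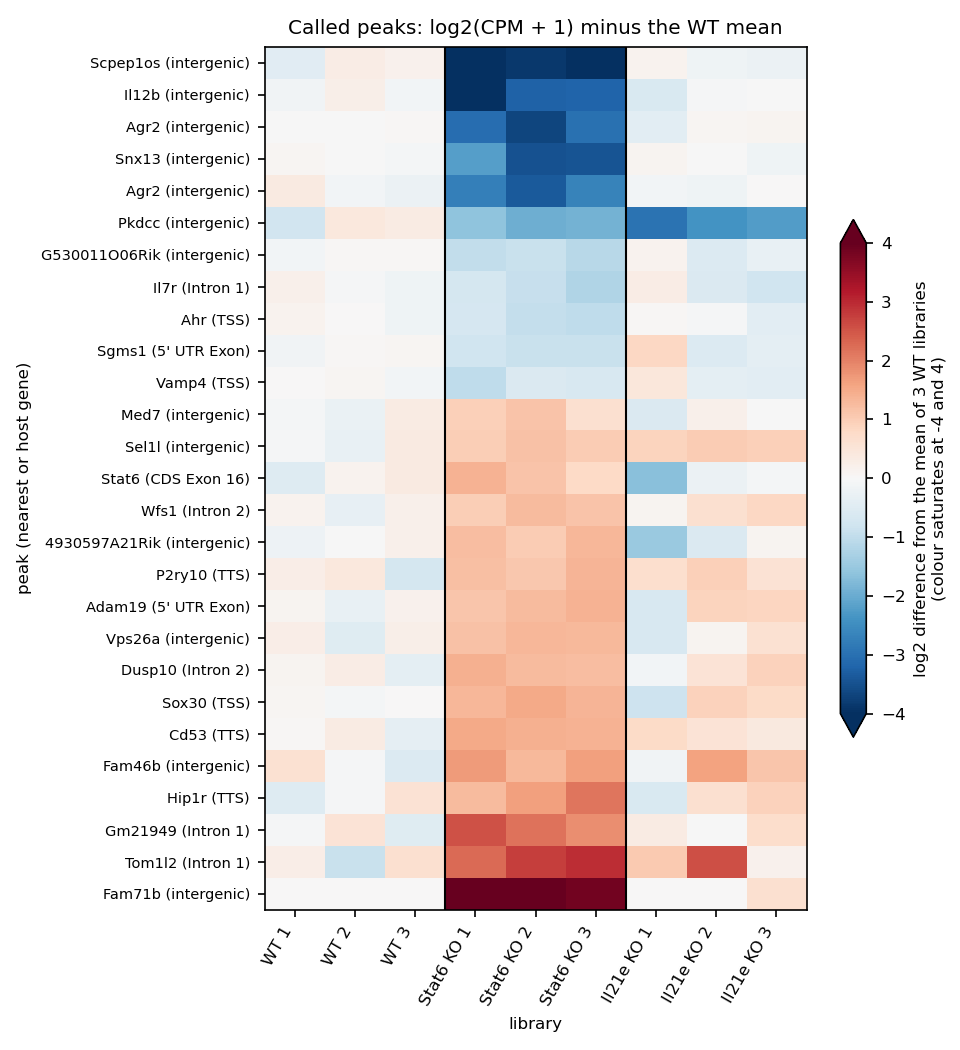
Rows are 27 of the called peaks, named by their host or nearest gene, and columns the 9 libraries; colour is log2(CPM + 1) minus the mean of the 3 WT libraries, saturating at -4 and 4. The 3 Stat6_KO columns are blue in the 11 upper rows and red in the 16 lower rows, and the Il21e_KO columns follow Stat6_KO at the Pkdcc and Sel1l peaks.

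Changed peaks were unevenly spread over the genome. Chromosome 11 held 9 of the 28 (32.1%) and 7.90% of the peaks tested, and chromosome 12 held 5 (17.9%) and 4.38%. On chromosome 11, 7 of the 9 fell in a stretch of 2.24 Mb from the Il12b to the Med7 peak (43996386 to 46235571), where 88 peaks were tested. Of these 7, the Il12b peak fell and the other 6, among them those of 4930597A21Rik, Sox30, Adam19, Fam71b and Med7, rose. The remaining 81 peaks of the stretch had a median log2 fold change of 0.02, with 14 at an unadjusted p under 0.05. They ran from -1.51 to 1.84. The lowest (-1.51 ± 0.33) was also assigned to 4930597A21Rik and was the tested peak next to the called one that rose. On chromosome 12, 4 of 12 tested peaks fell in the 968 kb from Snx13 to Agr2 (35674659 to 36642901), with the Ahr promoter between them, and the other 8 had a median of 0.25. These stretches were picked because they hold called peaks, so their counts are descriptions.

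Within that chromosome 11 stretch, the Fam71b and Med7 peaks lay 8.55 kb apart, centre to centre, and the Sox30 and Adam19 peaks 136 kb. At Adam19 all 11 tested peaks had a positive fold change, from 0.25 to 1.26, of which 1 passed. Other genes with a called peak were split, with 9 of 20 positive at Dusp10, 5 of 10 at Il7r and 6 of 10 at Cd53. Adam19 was looked at because it holds a called peak, so its count is a description. The Adam19 promoter had 32, 23 and 38 reads in WT against 39, 43 and 47 in Stat6_KO.

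**Figure D4:**
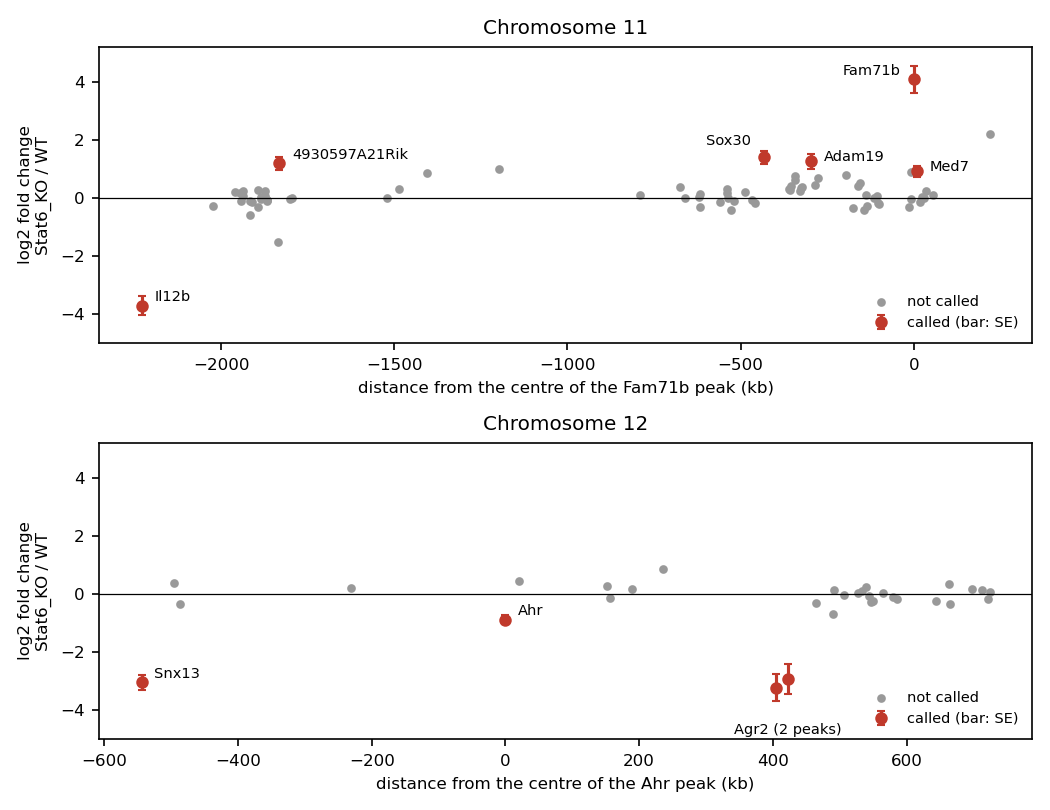
Log2 fold change of most tested peaks against their distance from the Fam71b peak on chromosome 11 (upper panel) and from the Ahr promoter peak on chromosome 12 (lower panel); called peaks are red with SE bars. Called and uncalled peaks are interleaved, with uncalled medians of 0.02 and 0.25 inside the 2 stretches.

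The IL-4 receptor and STAT6 signalling list of 21 genes had 110 tested peaks, of which 1 rose (Stat6 exon 16) and 0 fell, with a median log2 fold change of -0.00 against -0.01 over all peaks. Its ligands Il4 and Il13 had no peak assigned. The receptor promoters stood at 22.7 ± 6.02 CPM in WT and 20.8 ± 2.87 in Stat6_KO for Il4ra, the IL-4 binding chain, and at 27.5 ± 6.25 and 28.5 ± 3.90 for Il2rg, the common gamma chain. Il13ra1, the partner chain outside lymphocytes, was lower in level, at 7.48 ± 1.84 and 5.52 ± 1.91 CPM. The kinase promoters also overlapped between genotypes, with log2 fold changes of 0.04 ± 0.15 for Jak1, 0.11 ± 0.17 for Jak3 and -0.16 ± 0.17 for Tyk2. None of these passed.

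Downstream of the receptor, the promoter of Irs2, an adaptor that links it to the phosphoinositide 3-kinase pathway, held 113, 96.5 and 72.2 CPM in WT and 71.0, 74.2 and 78.9 in Stat6_KO. WT 3 lay within the Stat6_KO range and the other WT libraries above it; the difference did not pass (-0.30 ± 0.12, limma-trend adjusted p = 0.443), and without WT 3 it did (-0.48, limma-trend adjusted p = 0.00357). The feedback inhibitors gave -0.25 ± 0.14 for Socs1, -0.15 ± 0.14 for Socs3, -0.01 ± 0.12 for Socs5 and -0.14 ± 0.14 for Cish, and the phosphatase Ptpn6 gave 0.03 ± 0.15; none passed. Among promoters of the other STAT genes, Stat2, which acts in interferon signalling, had separate groups (26.9, 27.2 and 21.9 CPM in WT, 19.3, 17.1 and 20.8 in Stat6_KO) and missed the threshold (-0.39 ± 0.17, limma-trend adjusted p = 0.520). Stat3, Stat4, Stat5a and Stat5b lay between -0.06 and 0.11. Of the 43 peaks of these 6 genes 0 passed by limma-trend, edgeR, limma-voom or DESeq2. An unadjusted p under 0.05 was found at 5 of them (11.6%, beside 8.46% of all peaks tested).

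**Figure D5:**
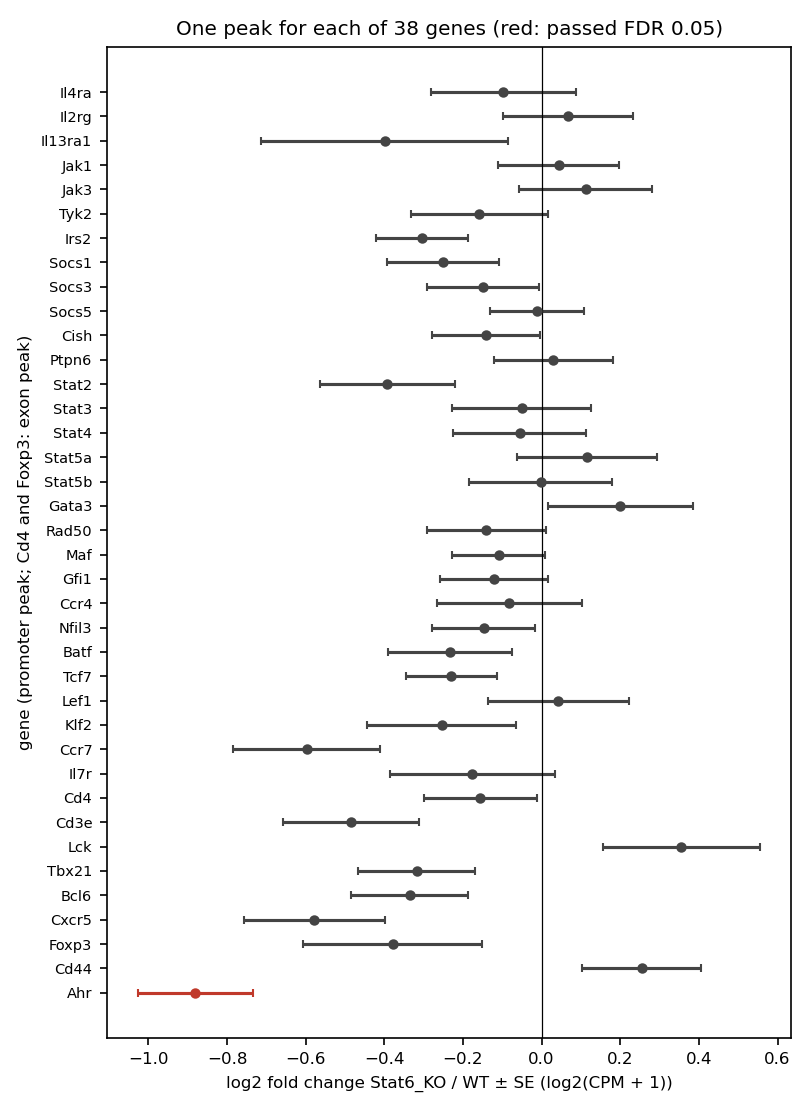
Log2 fold change of Stat6_KO over WT with its SE for 1 peak of each of 38 genes chosen by name, from the IL-4 receptor and its kinases (top) to T cell identity and helper fate genes (bottom). Only Ahr (red, -0.88) passed; the others run from -0.60 (Ccr7) to 0.36 (Lck).

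Genes that STAT6 is known to switch on in Th2 cells had 0 calls among their 84 peaks by the same 4 tools. Their median was -0.00, and 5 peaks had an unadjusted p under 0.05 (5.95%, beside 8.46% of all peaks tested). The Gata3 promoter peak stood at 18.1 ± 3.66 CPM in WT and 20.8 ± 3.45 in Stat6_KO. Promoters of Maf, an activator of Il4 (-0.11 ± 0.12), Gfi1, a repressor that favours Th2 growth (-0.12 ± 0.14), the Th2 chemokine receptor gene Ccr4 (-0.08 ± 0.18), Nfil3 (-0.15 ± 0.13) and the AP-1 factor gene Batf (-0.23 ± 0.16) did not pass. Nor did that of Rad50, which carries the control region of the Th2 cytokine genes (31.8 ± 3.22 and 28.7 ± 2.23 CPM). Il4, Il13, Il5, Il24, Pparg and Penk had no tested peak.

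The list of naive and quiescent genes had 500 tested peaks, of which 1 fell (Il7r intron 1) and 0 rose. Its median was -0.03, and 10.6% had an unadjusted p under 0.05, beside 8.46% of all peaks tested. Ccr7, the receptor that guides naive cells to lymph nodes, had separate groups at its promoter, with 20.8, 21.02 and 19.3 CPM in WT and 11.4, 13.5 and 14.7 in Stat6_KO, and missed the threshold (-0.60 ± 0.19, limma-trend adjusted p = 0.298). The naive cell factors gave -0.23 ± 0.12 at Tcf7, 0.04 ± 0.18 at Lef1 and -0.25 ± 0.19 at Klf2, with overlapping groups. Of T cell identity genes, the Cd3e promoter had 22.6, 31.1 and 27.1 CPM in WT and 17.6, 17.7 and 21.4 in Stat6_KO (-0.48 ± 0.17, limma-trend adjusted p = 0.388), Lck gave 0.36 ± 0.20 and an exon peak of Cd4 -0.16 ± 0.14.

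Helper fate lists held 1 call in all, the Ahr promoter among 34 Th17 peaks. The Cxcr5 promoter, of the receptor that brings follicular helper cells to B cells, had 31.8, 23.4 and 21.3 CPM in WT and 15.3, 16.5 and 17.7 in Stat6_KO and did not pass (-0.58 ± 0.18, limma-trend adjusted p = 0.287). The follicular regulator Bcl6 (-0.34 ± 0.15) and the Th1 regulator Tbx21 (-0.32 ± 0.15) also had separate groups without passing. Foxp3, the regulatory T cell factor, gave -0.38 ± 0.23 at an exon 4 peak and the memory marker Cd44 0.25 ± 0.15 at its promoter. By limma-trend, edgeR, limma-voom and DESeq2 alike 0 peaks passed in the follicular helper (88 peaks), Th1 (77), regulatory (75), memory and effector (70), early T cell receptor response (103) and interferon response (38) lists, where 10, 9, 2, 4, 15 and 3 had an unadjusted p under 0.05. The share over all peaks tested was 8.46%. Medians of these lists were -0.04, -0.06, -0.00, -0.02, 0.01 and -0.14. Over their TSS peaks alone the medians were -0.24, -0.14, 0.15, -0.05, -0.28 and -0.14, beside -0.08 over all TSS peaks tested. Whether these differ was not tested.

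Marker lists of other cell types held 0 calls by these 4 tools, and 2 of 19 B cell, 1 of 14 CD8 T cell, 2 of 14 NK cell, 0 of 18 myeloid and 0 of 3 erythroid peaks had an unadjusted p under 0.05. Over all peaks tested that share was 8.46%. Summed over all its listed peaks, the B cell list ranged from 293 to 407 CPM in WT and from 354 to 392.1 in Stat6_KO, and the myeloid list from 353 to 410 and from 358 to 372. The CD8 T cell list stood at 315 to 337 CPM in WT and 295 to 302 in Stat6_KO, without overlap, and the Cd8b1 promoter at 38.2 ± 2.96 and 32.8 ± 2.61. Lower sums without overlap were not particular to that list. They were also found for the Th2, naive and quiescent, follicular helper and interferon response lists, the last at 846 to 895 CPM in WT and 800 to 827 in Stat6_KO. The sums of the remaining lists overlapped. Lyz2, Elane, Mpo and Csf3r of the myeloid list had no tested peak, nor had the globin genes. The part of other cell types in the called peaks was not tested.

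A presence and absence pattern was sought over all 115727 peaks, with at most 3 reads in every library of one genotype and at least 10 in every library of the other, a rule set after the values were seen. It was met by 12 peaks, 8 present in Stat6_KO and 4 present in WT, and 8 of the 12 were among the called. A peak 83.0 kb from Gm12171 (chromosome 11, 46444890 to 46445569) belonged to the former, with 3, 0 and 2 reads in WT against 14, 13 and 12 in Stat6_KO, and narrowly missed the threshold (2.21 ± 0.50, limma-trend adjusted p = 0.0652). It lies beyond the Med7 peak on the same side of the Fam71b peak. The 4 peaks present in WT were those near Scpep1os, Il12b and Agr2.

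By position in genes, 3 of 11812 TSS peaks changed (0.0254%), 3 of 7123 exon peaks (0.0421%), 6 of 10893 intron peaks (0.0551%), 3 of 1128 peaks at transcription ends (0.266%) and 13 of 15345 intergenic peaks (0.0847%). Intergenic peaks thus made up 46.4% of calls and 33.1% of peaks tested. The median log2 fold change was -0.08 at TSS peaks and between 0.02 and 0.03 in the other classes. It also followed the signal, from 0.10 among the 11576 peaks with the lowest mean CPM to -0.08 among the 11575 with the highest. The mean share of reads in TSS peaks was 34.7 ± 2.17% in WT and 32.6 ± 0.92% in Stat6_KO (SD, exact 2-sided permutation p = 0.3). This lower mean share and the fewer empty peaks of the Stat6_KO libraries move with both medians, and their part in single calls was not tested. Among genes with a tested TSS peak and a promoter in RefSeq, 480 with a TTCNNNNGAA match had a median of -0.10 and those without it -0.09, and 609 with TTCNNNGAA stood at -0.10 and the rest at -0.09.

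How many peaks were called depended on single libraries. Without WT 3, 410 of 48810 peaks passed (0.84%), 160 higher and 250 lower, and the 28 were among them. Leaving out WT 1 or WT 2 gave 46 and 36 calls, with 23 and 19 of the 28 kept, and leaving out Stat6_KO 1, 2 or 3 gave 14, 16 and 16, with 12, 15 and 14 kept. Each of the 28 held its direction in every alternative in which it was tested, and 7 passed in all 6 fits that leave out 1 library: those near Scpep1os, Snx13, Il12b, G530011O06Rik and Vps26a and the promoters of Sox30 and Ahr. Without WT 1 the lost calls were Il7r, Vamp4, Stat6, Sgms1 and the weaker Agr2 peak (36642250; limma-trend adjusted p = 0.0585 to 0.277). Without WT 2 they were Pkdcc, both Agr2 peaks, Sel1l, Med7, Vamp4, Adam19, Wfs1 and Sgms1 (0.0534 to 0.188). Fam71b, Tom1l2, Dusp10, Gm21949, Sel1l, Med7, Stat6, Adam19, Fam46b, Cd53, Wfs1 and Sgms1 were lost without Stat6_KO 1 and without Stat6_KO 2, and P2ry10, 4930597A21Rik and Vamp4 in addition without Stat6_KO 1 (limma-trend adjusted p = 0.111 to 0.620 without Stat6_KO 1 and 0.0509 to 0.268 without Stat6_KO 2). Without Stat6_KO 3 the lost calls included Hip1r, Il7r, Tom1l2, 4930597A21Rik, Gm21949, P2ry10, Sel1l, Vamp4, Adam19, Fam46b, Cd53, Wfs1 and Sgms1 (limma-trend adjusted p = 0.0729 to 0.364). Just outside the threshold lay the promoter of Cisd2, a gene of the mitochondrial and reticulum membranes, with a log2 fold change of -0.74 ± 0.16 (limma-trend adjusted p = 0.0522).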

How the data were processed

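Libraries were grouped by the genotype in the labels. The deposited table lists 115727 peaks on mm9 with CPM per library, which the authors scaled to the reads in listed peaks, since all columns sum to the same total. Bowtie 1.3.0, MACS2 2.0 and HOMER are named in the submitters' processing notes; their roles and the peak filters are not given in the sources used here. Each deposited CPM value was a whole multiple of its library's step within 0.01 read (100% of values), and the multiples were taken as reads. Gene columns were read by content, since their headers are shifted, and the 41627 intergenic peaks were assigned to the nearest listed TSS from the peak's edge (for lists, up to 100 kb).

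Peaks were kept by filterByExpr of edgeR 4.0.16 (minimum count 10, minimum total 15). The model on log2(CPM + 1) of the 6 libraries was limma-trend, from limma 3.58.1 under R 4.3.3, without a block, with Benjamini-Hochberg adjustment over 46301 peaks and a threshold of 0.05. Fold changes on this scale understate those of low peaks. SD and n refer to 3 libraries, and SE to the fit. Alternatives were edgeR, DESeq2 1.42.0 and limma-voom on the recovered reads, other pseudocounts, filters and scalings, array weights, all 9 libraries, the replicate number as a block, and each library left out. The fit was also run on simulated reads with a fixed spread and no outlying library. That run cannot show how the calls depend on a library such as WT 3. Named were the tested Stat6 peaks, up to 15 called genes per direction and 42 genes chosen by name, of which 40 had a tested peak, given by the TSS peak with the highest mean or otherwise the peak nearest the start; genes outside this are said to be so or belong to a set named whole. Members, the 18 lists and the genes were chosen with earlier results of these data known. Some of these genes are not reported here.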

Additional observations from a re-analysis of the deposited data

Results flagged for a closer look

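Among peaks with too few reads to be tested, 3 held at least 10 reads in every Stat6_KO library and at most 3 in every WT library. An intergenic peak 10.5 kb from Pde12, a mitochondrial RNA exonuclease gene (chromosome 14, 27478345 to 27478871), held 15, 10 and 12 reads in Stat6_KO, 37 in sum, against 3, 3 and 2 in WT. A peak at the 3′ end of Guca2a, the guanylin gene (chromosome 4, 119311034 to 119311906), held 10, 13 and 12 reads, 35 in sum, against 3, 3 and 1. A peak in Wnt5b, a Wnt ligand gene (chromosome 6, 119473555 to 119473955), held 16, 12 and 10 reads, 38 in sum, against 2, 3 and 0. The Il21e_KO libraries held 5, 10 and 12 reads at the Pde12 peak, 3, 8 and 6 at the Guca2a peak and 1, 4 and 6 at the Wnt5b peak. No test was made of these 3 peaks, which were picked for this pattern.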

How the results depend on the processing

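Across 18 alternatives, of which cyclic loess was chosen after seeing the data, the 28 called peaks kept their direction wherever tested, and their number moved. A pseudocount of 5 gave 50 calls (27 higher, 23 lower), no filter on low values 59 (31 and 28), edgeR on recovered reads 54 (31 and 23), cyclic loess 49 (26 and 23) and array weights 100 (60 and 40), each with all 28 except edgeR, which kept 27. The filter at a mean of 5 CPM gave 39 calls, with 17 lower. DESeq2 on recovered reads gave 5 (1 higher, 4 lower) and all 9 libraries in 1 fit gave 5 (0 higher, 5 lower; 809 higher and 782 lower at an unadjusted p under 0.05), and the 23 calls lost had adjusted p of 0.0613 to 1.00 and 0.195 to 1.00. The fit of all 9 libraries included Il21e_KO 1, the Il21e_KO library that stood apart, and had a median SE of 0.242, against 0.200 in the main fit. The part of Il21e_KO 1 in the calls lost was not tested. Leaving out 1 library gave 14 to 410 calls, 3 to 160 higher and 8 to 250 lower. With the replicate number as a block 46 peaks passed (28 higher, 18 lower), all 28 among them; the numbers share no label beyond the digit, and same-numbered libraries correlated at -0.08, 0.03 and -0.06. Limma-voom lost Adam19, Fam46b, Cd53, Wfs1 and Sgms1 (adjusted p = 0.0528 to 0.0944), a pseudocount of 0.25 lost the second Agr2 peak, Wfs1 and Sgms1, and TMM scaling and edgeR lost Sgms1. The Stat6 exon 12 peak passed with a pseudocount of 5, no filter, edgeR and cyclic loess.

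Sign changes were seen only at named peaks that passed in neither setting. Leaving out 1 library, log2 fold changes ran from -0.25 to 0.032 at the Stat6 promoter, -0.29 to 0.083 at Il4ra, -0.079 to 0.23 at Il2rg, -0.10 to 0.16 at Jak1, -0.075 to 0.21 at Jak3, -0.10 to 0.091 at Socs5, -0.069 to 0.18 at Ptpn6, -0.15 to 0.020 at Ccr4, -0.18 to 0.18 at Stat3, -0.13 to 0.013 at Stat4, -0.029 to 0.21 at Stat5a, -0.16 to 0.19 at Stat5b, -0.11 to 0.15 at Lef1, -0.46 to 0.0077 at Klf2 and -0.32 to 0.037 at the Il7r promoter. Cyclic loess gave 0.020 at the Stat6 promoter, 0.10 at Socs5, 0.0018 at Maf, 0.013 at Stat3 and 0.056 at Stat5b. Array weights gave -0.0031 at Jak1 and -0.00087 at Ptpn6. At Socs5 and Stat5b, TMM scaling gave 0.00046 and 0.0091, edgeR 0.016 and 0.022, DESeq2 0.0080 and 0.0096, and limma-voom 0.0082 and 0.023. Of 342 list medians recomputed, 84 moved by more than the spread between libraries, within -0.28 to 0.15, and of 90 class medians 13 did. The cause of these shifts was not tested. Depth limits the low peaks: 69426 of 115727 were not tested.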

Other observations

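Without WT 3 the wider set of 410 calls had another make-up than the 28: 184 lay at a TSS (44.9%, against 24.4% of the peaks tested in that fit), and 167 of those 184 were lower in Stat6_KO. Of the 410, 25 belonged to the gene lists, 4 higher and 21 lower, which is 1.62% of the 1541 list peaks tested in that fit, beside 0.84% of all 48810 peaks; whether these shares differ was not tested. The lower ones included promoters of the quiescence factor Foxo1 (log2 fold change -0.69, limma-trend adjusted p = 0.0270), of the chromatin organiser Satb1 (-0.35, limma-trend adjusted p = 0.0479), of the TGF-beta receptor gene Tgfbr2 (-0.40, limma-trend adjusted p = 0.0290) and of the immediate early gene Junb (-1.21, limma-trend adjusted p = 0.0139), and an intergenic and a 3′ end peak of S1pr1, the receptor for lymph node exit (-0.61 and -0.49). They also included the promoter of Ywhaz, of the list of ubiquitous genes (-0.54, limma-trend adjusted p = 0.0355), so they were not confined to T cell genes. With WT 3 none of these passed. At the Foxo1 promoter WT held 37.9, 36.6 and 24.5 CPM and Stat6_KO 20.5, 24.1 and 23.9, and at the Satb1 promoter 103, 95.8 and 77.4 against 71.0, 78.9 and 84.4, so that WT 3 stood nearest to Stat6_KO at Foxo1 and within its range at Satb1. The TSS share of WT 3, close to that of Stat6_KO, moves with these values; its part was not tested. These genes were chosen after their values were seen.

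On chromosome 14, an interval of 17 untested peaks (53661607 to 53755104) held 3, 3 and 1 reads in Stat6_KO and 5, 250 and 234 in WT 1, WT 2 and WT 3, so that WT 1 stood with Stat6_KO and apart from the other WT libraries. The Il21e_KO libraries held 138, 290 and 320.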
